A study of Mus musculus with 23 samples.

Results

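UDP-glucuronosyltransferase (UGT) transcripts were measured in the livers of mice of both sexes from a line with a disrupted Cyp2e1 gene and from a WT line. The genes described are Ugt2b1, Ugt2b5, Ugt2b34, Ugt2b35, Ugt2b36, Ugt2b38, Ugt2a3, Ugt1a1, Ugt3a1 and Ugt3a2, which were chosen by name from the gene names of the deposited table, with earlier results of these data known. They are 10 of its 65535 genes, a number at the row limit of an xls sheet, so the table may be cut and library totals and shares of all genes refer to its rows. All 10 passed the filter on low counts that left 11370 tested genes. Because of how the genes were chosen, counts of called members beside shares of all genes are descriptions. The knockout mice (KO) were of the line 129/Sv-Cyp2e1tm1Gonz/J, in which Cyp2e1, the gene of a cytochrome P450 that oxidises ethanol, is disrupted, and the WT mice were of the separate line 129S1/SvImJ. The 4 groups were Female WT with 5 mice, Female KO with 6, Male WT with 6 and Male KO with 6. No treatment is named in the labels, and all mice were kept on normal chow in shared cages. Their age is given as 12 to 13 weeks in 1 field of the labels and as 16 weeks in another. Since each genotype is also a separate line, the disrupted gene and any other difference between the lines cannot be told apart. The series calls the libraries biological replicates but gives no litters or cages, so p-values measure the spread between these samples.

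UGT enzymes sit in the membrane of the endoplasmic reticulum and transfer the sugar of an activated nucleotide onto lipophilic molecules, which become water-soluble and can be excreted into bile or urine. The UGT1A enzymes arise from 1 locus in which alternative first exons join a common set of downstream exons, and UGT1A1 conjugates bilirubin, the breakdown product of heme. Each Ugt2 enzyme, by contrast, is largely encoded by its own gene in a cluster, and UGT2B enzymes conjugate steroids, bile acids and many drugs. Human UGT3A enzymes prefer other sugars, N-acetylglucosamine for UGT3A1 and glucose or xylose for UGT3A2. Hepatocytes are the main site of glucuronidation in the liver, where it follows or bypasses oxidation by cytochromes P450 such as CYP2E1.

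Promoter sequences from the RefSeq table (build GRCm38.p6) matched 9 of the 10 genes by symbol. Each sequence runs 5′ to 3′ along the gene from 250 bases before its annotated start to 50 bases after it. Those of the 5 genes that differed between the sexes in at least 1 line are shown first, followed by Ugt2b38, whose sequence is close to that of Ugt2b5 while its counts were low. Capitals mark matches, on either strand, to GTTAAT (part of the site of the hepatocyte factor HNF1), ATTGAT (a core bound by HNF6 and CUX2) or TATAAA (the core promoter box named after it).
Ugt2b1 (chr5:86926454-86926753, minus strand): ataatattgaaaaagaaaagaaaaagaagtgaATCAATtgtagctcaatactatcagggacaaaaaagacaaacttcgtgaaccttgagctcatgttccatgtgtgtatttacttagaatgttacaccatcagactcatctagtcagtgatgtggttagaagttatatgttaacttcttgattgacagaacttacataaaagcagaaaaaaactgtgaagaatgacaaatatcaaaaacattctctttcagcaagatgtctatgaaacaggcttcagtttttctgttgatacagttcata
Ugt2b5 (chr5:87140291-87140590, minus strand): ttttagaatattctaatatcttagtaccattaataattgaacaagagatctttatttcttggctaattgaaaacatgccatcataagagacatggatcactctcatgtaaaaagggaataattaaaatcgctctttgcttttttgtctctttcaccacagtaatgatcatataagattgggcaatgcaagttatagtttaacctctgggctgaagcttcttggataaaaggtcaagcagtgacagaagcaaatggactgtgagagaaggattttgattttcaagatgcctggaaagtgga
Ugt2b35 (chr5:87000610-87000909, plus strand): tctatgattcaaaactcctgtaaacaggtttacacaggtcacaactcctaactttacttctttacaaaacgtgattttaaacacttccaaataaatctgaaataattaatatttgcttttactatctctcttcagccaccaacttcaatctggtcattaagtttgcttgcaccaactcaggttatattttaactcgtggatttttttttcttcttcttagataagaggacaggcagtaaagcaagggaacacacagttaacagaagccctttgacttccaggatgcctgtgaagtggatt
Ugt1a1 (chr1:88211709-88212008, plus strand): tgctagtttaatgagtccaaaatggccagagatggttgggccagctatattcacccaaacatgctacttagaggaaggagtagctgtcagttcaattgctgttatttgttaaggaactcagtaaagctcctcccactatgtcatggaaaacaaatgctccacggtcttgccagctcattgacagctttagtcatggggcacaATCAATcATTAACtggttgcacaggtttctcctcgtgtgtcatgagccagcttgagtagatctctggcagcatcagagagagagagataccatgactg
Ugt3a1 (chr15:9279579-9279878, plus strand): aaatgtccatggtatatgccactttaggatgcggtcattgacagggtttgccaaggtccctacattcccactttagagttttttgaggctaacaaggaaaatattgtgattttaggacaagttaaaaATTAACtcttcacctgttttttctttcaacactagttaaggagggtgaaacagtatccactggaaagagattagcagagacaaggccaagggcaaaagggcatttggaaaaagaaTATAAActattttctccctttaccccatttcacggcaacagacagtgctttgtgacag
Ugt2b38 (chr5:87424154-87424453, minus strand): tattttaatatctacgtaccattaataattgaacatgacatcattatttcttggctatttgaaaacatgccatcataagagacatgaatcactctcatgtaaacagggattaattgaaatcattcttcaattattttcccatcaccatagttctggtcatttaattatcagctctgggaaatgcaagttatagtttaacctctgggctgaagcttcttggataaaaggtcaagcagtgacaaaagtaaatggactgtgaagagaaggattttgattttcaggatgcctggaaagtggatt
The Ugt2b5 and Ugt2b38 windows were the most alike of the member pairs, with 261 identical bases, 29 mismatches and 20 gap columns in a global alignment (84.2% of columns identical). Next came Ugt2b36 and Ugt2b38 with 63.9%. GTTAAT or its reverse complement was present in 3 of 9 windows (Ugt1a1, Ugt2a3 and Ugt3a1) and in 7.10% of 32851 RefSeq windows of the same 300 bases. ATTGAT was present in 3 (Ugt1a1, Ugt2b1 and Ugt2b36) against 7.54%, and TATAAA in 1 (Ugt3a1) against 13.6%. The STAT5 pattern TTCNNNGAA, searched on both strands, was in 0 of 9 windows against 8.30% of all. In Ugt1a1 the ATTGAT and GTTAAT matches, both on the opposite strand, began 48 and 41 bases before the start and lay side by side without overlap. The TATAAA match of Ugt3a1 began 8 bases before the start, and the ATTGAT match of Ugt2b36 lay after it, from base 19. All matches describe letters in the windows only.

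Male KO replicate 3 was the shallowest library with 1538889 counts, and the other 22 held 3705978 to 9874733. It stood apart from its group: 16.1% of its counts were mitochondrial, and its UGT values are given with and without it where it decides a call. The 7 hepatocyte markers, among them Alb and Ttr, summed to 69449 to 94837 CPM (counts scaled to library size) per library, which fits the liver label. Kidney tubule markers summed to at most 0.243 CPM, with Slc22a12, Kap and Slc12a1 at 0 in every library. Cyp2e1 fell 14.9-fold in Female KO (log2 fold change -3.89, SE 0.21, adjusted p = 1.61e-12 by edgeR) and 14.3-fold in Male KO (log2 fold change -3.84, SE 0.21, adjusted p = 1.66e-12 by edgeR). Because the disrupted part of Cyp2e1 is not named, a 3′ tag checks the groups through this difference alone.

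The 10 UGT genes together took 918 ± 75.2 CPM in Female WT, 1211 ± 117 in Male WT, 931 ± 64.8 in Female KO and 1227 ± 137 in Male KO (mean ± SD over 5, 6, 6 and 6 mice). On deposited CPM every male library, from 1031 to 1397 CPM, lay above every female library, from 794 to 1013 CPM. This separation rests on library totals. The lowest male sum came from Male KO replicate 2 and the highest female one from Female KO replicate 4. Their TMM factors, used for the fold changes, were 1.102 and 0.898, and with them the order of this pair is reversed. In this 3′ end counting a transcript is counted near its end, so CPM values were not divided by transcript length, and comparisons between genes also depend on how well each end can be assigned. On this CPM scale Ugt2b36 had the highest mean in all 4 groups, from 297 ± 37.5 in Female WT (SD, n = 5) to 365 ± 83.9 in Male KO (SD, n = 6). Its libraries did not overlap those of the next gene, Ugt2b5, in the female groups, but overlapped those of the next gene, Ugt2b1, in both male groups. Ugt2b1 came after Ugt2b5 in Female WT, with overlapping libraries, and after Ugt2a3 in Female KO, again with overlap. Its share of the summed CPM was 16.0% ± 1.64 in Female WT and 13.8% ± 1.57 in Female KO, against 26.1% ± 2.61 in Male WT and 23.9% ± 5.94 in Male KO (SD over the same mice). At the low end, Ugt2b38 and Ugt3a2 held only 7.67 to 20.67 and 3 to 20.5 counts per library, so their values carry wide counting error.

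**Figure D1:**
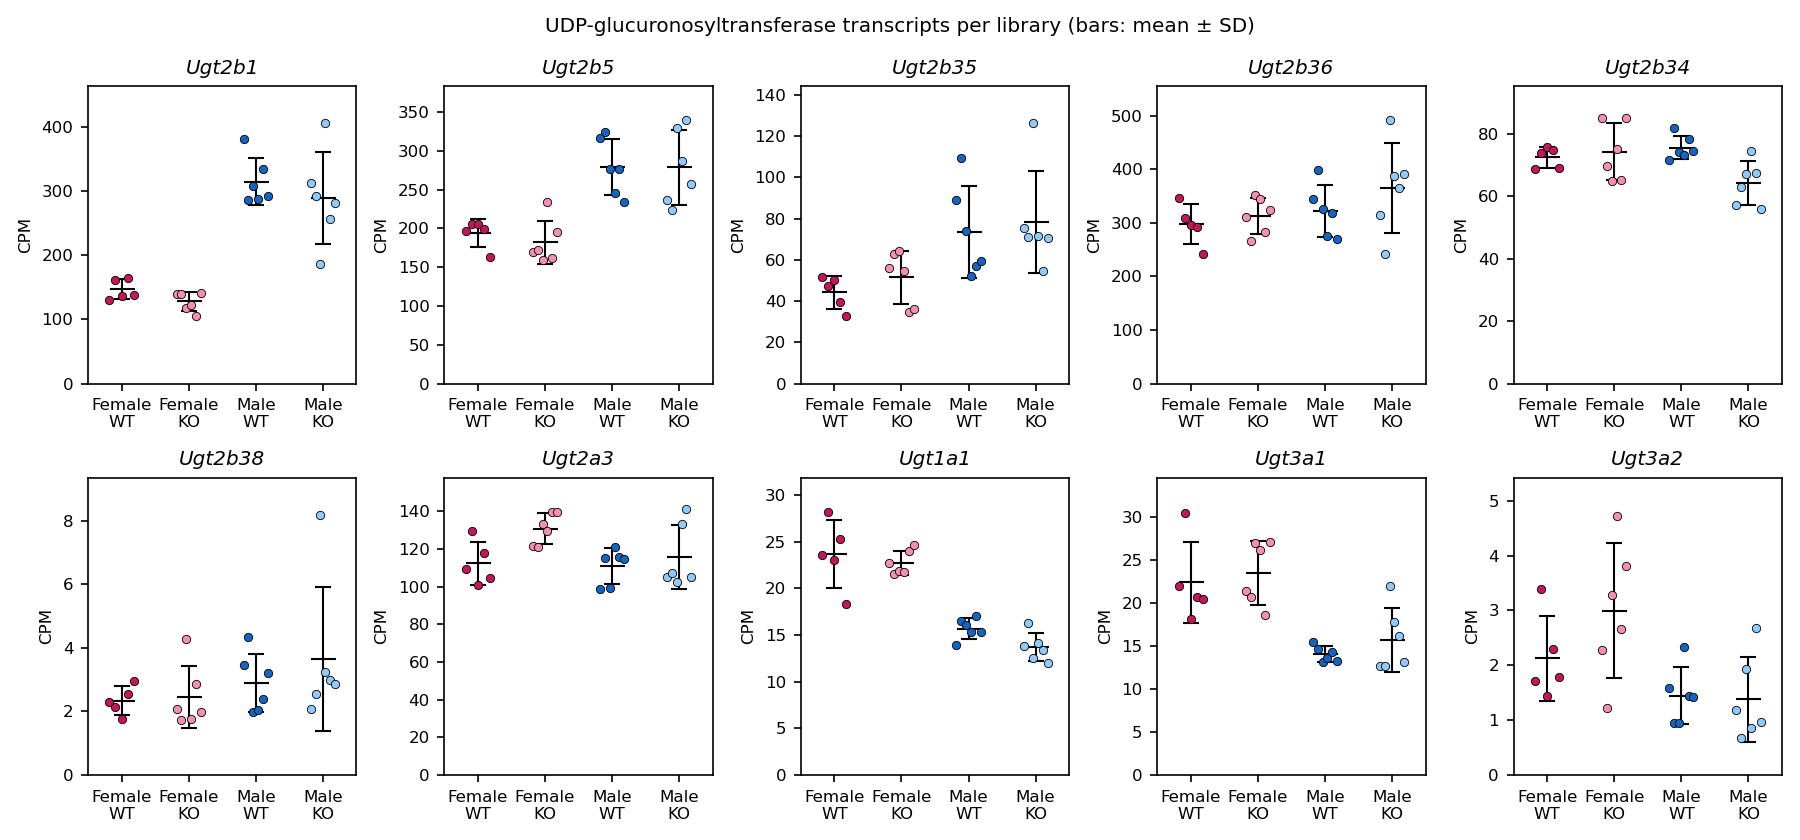
Deposited CPM of the 10 UGT genes (y axis, linear, each panel from 0) in the 4 groups (x axis), with 1 point per library and black bars for mean ± SD. Male libraries of Ugt2b1 (186 to 407 CPM) lie above all female ones (106 to 165 CPM), while those of Ugt1a1 lie below all female ones (12.0 to 17.0 against 18.3 to 28.1 CPM).

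Male and female livers differed in several UGT transcripts in both lines. In WT mice, edgeR's quasi-likelihood test with Benjamini-Hochberg adjustment over all tested genes called 5 of the 10 at an adjusted p under 0.05, where 5.61% of all tested genes were called. Ugt2b1, Ugt2b35 and Ugt2b5 were higher in males (2.36% of all genes were called higher), and Ugt1a1 and Ugt3a1 were lower (3.25% called lower). All 5 had WT libraries that did not overlap between the sexes, which held for 7.72% of tested genes. In KO mice 4 of the 10 were called, against 7.44% of all tested genes. Ugt2b1, Ugt2b5 and Ugt2b35 were again higher in males (3.67% of genes called higher) and Ugt1a1 lower (3.77% called lower). Only Ugt2b1 and Ugt1a1 separated every KO male from every KO female library, as 3.67% of tested genes did. The WT and KO contrasts share no library, but both came from 1 fit with a common filter, scaling and estimate of spread. The WT call of Ugt3a1 was thus lost without Female KO replicate 3 or Male KO replicate 6 (adjusted p = 0.0502 and 0.0519 by edgeR). The median log2 fold change over the 10 genes was 0.19 in each line, against -0.02 in WT and 0.01 in KO over all tested genes, since some members were higher and some lower.

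Ugt2b1, whose rat counterpart conjugates phenols and opioids, had the largest sex difference among the 10. The Female WT libraries had 131, 162, 137, 165 and 139 CPM. Female KO ranged from 106 through a median of 131 to 142 CPM, Male WT from 286 through 301 to 382 CPM, and Male KO from 186 through 287 to 407 CPM. Every male library was above every female library in both lines, and Male KO spread most widely. Ugt2b1 was 2.30-fold higher in Male WT than in Female WT (log2 fold change 1.20, SE 0.14, adjusted p = 4.26e-07 by edgeR) and 2.50-fold higher in Male KO than in Female KO (1.32, SE 0.13, adjusted p = 2.67e-08 by edgeR). Its call held in all 23 fits without 1 library and in all 12 other settings in both lines.

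Ugt2b5, whose promoter window is printed above beside the similar one of Ugt2b38, was higher in males in both lines. Its Female WT libraries stood at 197, 206, 206, 199 and 164 CPM. The Female KO values ran from 159 through a median of 171 to 233 CPM, those of Male WT from 234 through 277 to 325 CPM, and those of Male KO from 223 through 272 to 339 CPM. In WT no male library fell among the females, whereas in KO the highest female exceeded the lowest male. The fold was 1.54 in WT (log2 fold change 0.63, SE 0.16, adjusted p = 0.0192 by edgeR) and 1.71 in KO (0.77, SE 0.16, adjusted p = 0.00167 by edgeR). The WT call was lost without Female WT replicate 5 (0.59, adjusted p = 0.0558 by edgeR) and without Male WT replicate 2 (0.57, adjusted p = 0.0514 by edgeR). Of the 451 windows of 50 bases in the last 500 bases of Ugt2b5 transcripts, 14 (3.10%) also occur in Ugt2b37, and its counts were fractional in all 23 libraries. Some reads of Ugt2b5 were therefore divided, and how many cannot be told from the counts.

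Ugt2b35, another gene of the chromosome 5 cluster, was also higher in males. The Female WT levels were 51.4, 47.1, 50.1, 39.7 and 32.5 CPM. They were 34.9, 55.3 and 64.3 CPM at the lowest, median and highest in Female KO, 51.9, 66.6 and 109 CPM in Male WT, and 54.6, 71.3 and 126 CPM in Male KO. The WT sexes were separated by a narrow gap, and the KO sexes overlapped. Ugt2b35 was 1.79-fold higher in males in WT (log2 fold change 0.84, SE 0.22, adjusted p = 0.0177 by edgeR) and 1.69-fold in KO (0.75, SE 0.21, adjusted p = 0.0248 by edgeR). The highest KO value came from Male KO replicate 3, and without it the KO difference was 0.54 (SE 0.18, adjusted p = 0.0779 by edgeR). The KO call was also lost without Female KO replicate 5 or 6, with adjusted p of 0.0739 and 0.0651 by edgeR. In WT it was lost without Female WT replicate 4 or 5 or Male WT replicate 2, with adjusted p of 0.0544, 0.0575 and 0.0559 by edgeR.

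The remaining Ugt2 genes were not called between the sexes in either line. Ugt2b36 differed by a log2 fold change of 0.22 in WT (95% interval -0.13 to 0.58) and 0.39 in KO (0.05 to 0.73, adjusted p = 0.141 by edgeR). Without Male KO replicate 2 its KO difference was called (0.52, adjusted p = 0.0173 by edgeR). Ugt2a3, a member of the neighbouring UGT2A subfamily, differed by 0.08 in WT (95% interval -0.17 to 0.34) and by -0.02 in KO (-0.26 to 0.23). Ugt2b34 gave 0.16 (-0.08 to 0.40) and -0.06 (-0.30 to 0.17). For these 2 genes the intervals leave out changes as large as that of Ugt2b1. The sparse Ugt2b38 gave 0.37 (-0.28 to 1.02) and 0.48 (-0.18 to 1.14), on at most 20.67 counts per library. In the GRCm38 annotation the cluster runs in the order Ugt2b34, Ugt2b1, Ugt2b35, Ugt2b36, Ugt2b5, Ugt2b37, Ugt2a3 and Ugt2b38, so Ugt2b36, which was not called, lies between the male-high genes Ugt2b35 and Ugt2b5.

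**Figure D2:**
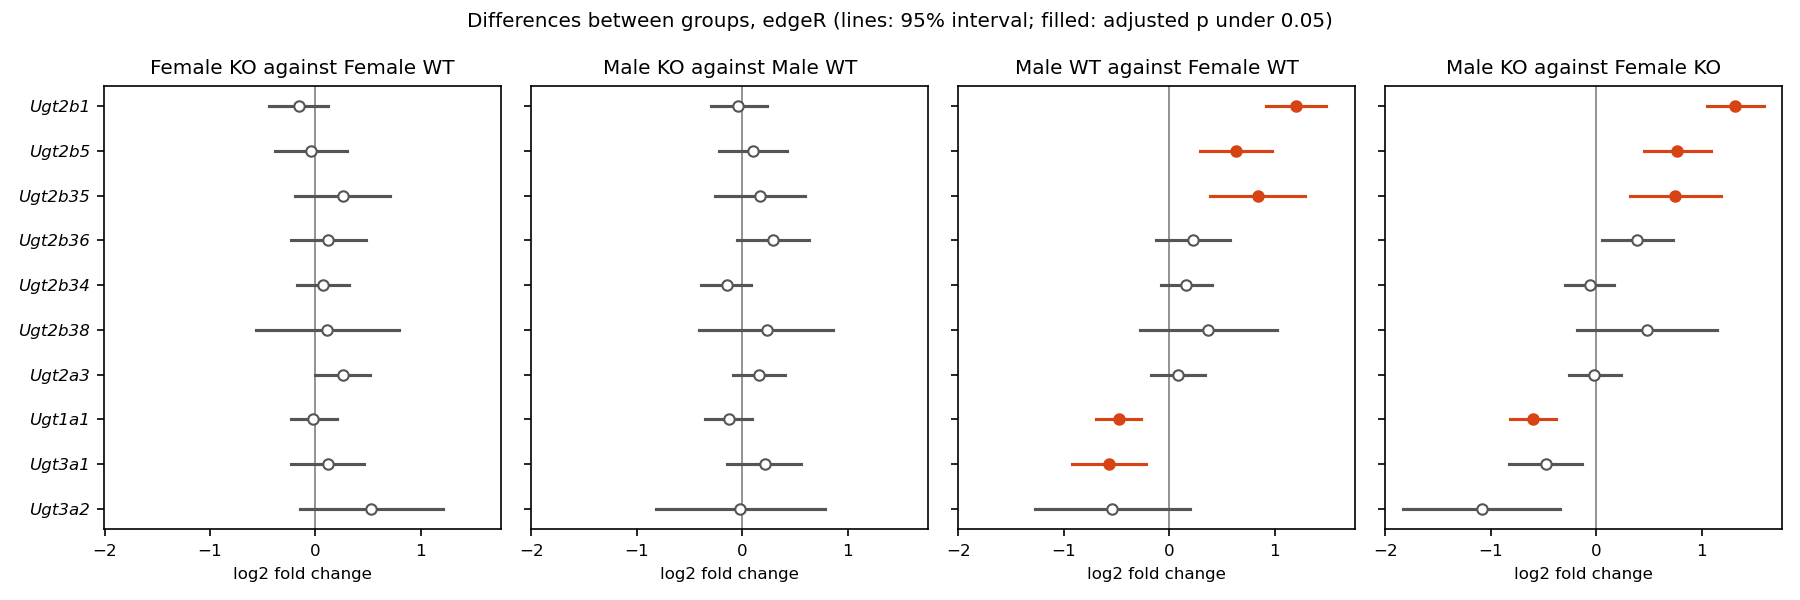
Log2 fold change (x axis) of each UGT gene (y axis) in the genotype and sex contrasts, with bars for 95% intervals and filled points for an adjusted p under 0.05. Filled points occur only in the sex contrasts, from 1.32 for Ugt2b1 to -0.60 for Ugt1a1 in KO.

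Ugt1a1, the bilirubin-conjugating member, was lower in males. Its Female WT libraries held 23.5, 28.1, 23.1, 25.3 and 18.3 CPM. Female KO lay between 21.5 and 24.6 CPM with a median of 22.2, Male WT between 13.9 and 17.0 with a median of 15.7, and Male KO between 12.0 and 16.3 with a median of 13.6. No male library reached the lowest female one in either line. The log2 fold change was -0.48 in WT (SE 0.11, 1.40-fold lower, adjusted p = 0.0037 by edgeR) and -0.60 in KO (SE 0.11, 1.51-fold lower, adjusted p = 0.000347 by edgeR). Both calls held in all 23 fits without 1 library. The KO call also held in all 12 other settings and the WT call in 11, since with no filter on low counts it was lost (-0.48, adjusted p = 0.0905 by edgeR).

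The Ugt1a1 counts are largely those of the whole Ugt1a locus. In the GENCODE M21 transcripts, 100% of the 50-base windows in the last 500 bases of Ugt1a1 also occur in other Ugt1a genes, and the 9 Ugt1a genes of the table had nearly equal counts in every library, with a highest-to-lowest ratio of 1.04 to 1.26. The lowest of the 9 counts in a library was taken as the part common to the locus, a measure chosen after the values were seen. It made up 92.7% of all Ugt1a1 counts, and 79.4% to 100% in single libraries. Summed over the 9 genes, CPM was 203 ± 35.9 in Female WT, 137 ± 11.4 in Male WT, 186 ± 10.5 in Female KO and 118 ± 17.8 in Male KO (mean ± SD over 5, 6, 6 and 6 mice). The highest male sum, 149 CPM, was just below the lowest female one, 151 CPM. With the 9 genes added into 1, males were lower by a log2 fold change of -0.46 in WT (SE 0.11, adjusted p = 0.0103 by edgeR) and -0.52 in KO (SE 0.11, adjusted p = 0.00223 by edgeR).

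Counts of Ugt1a1 above that common part numbered 158 of 2171.4 over all libraries, or 7.28%. This excess was larger than that of any other Ugt1a gene, of which Ugt1a5 had 92, Ugt1a6a 84.1, Ugt1a7c 67.0, Ugt1a9 50 and Ugt1a6b 19.8 counts. Ugt1a8 and Ugt1a10 had 1 each and Ugt1a2 had 0. The Ugt1a1 excess was 2.95, 1.79, 0.915, 0.885 and 2.13 CPM in the Female WT libraries. It was 1.56, 2.53 and 4.43 CPM at the lowest, median and highest in Female KO, 0.403, 0.778 and 0.909 in Male WT, and 0, 0.660 and 2.58 in Male KO. Each of these values rests on 0 to 20 counts. The mean was lower in males, by 1.04 CPM in WT (exact permutation p = 0.0173, adjusted over 4 comparisons 0.0346) and by 1.77 CPM in KO (exact permutation p = 0.013, adjusted 0.0346), both two-sided. Female WT and Male WT overlapped, since 1 female at 0.885 CPM lay below the highest male at 0.909 CPM, and in Male KO only replicate 3, at 2.58 CPM, lay among the females. For genotype the same test gave p = 0.156 in females and p = 0.773 in males (exact permutation, adjusted 0.208 and 0.773). The mean excess of Ugt1a5 was also lower in males, at 0.206 against 1.59 CPM in WT, and lower in KO males as well. That of Ugt1a6a was 0.484 against 0.897 CPM in WT and 0.611 against 0.862 CPM in KO. Ugt1a7c went the other way in KO, at 0.599 CPM in males and 0.536 CPM in females. The sex difference in the excess of these other genes was not tested. The Ugt1a1 result therefore cannot be read as specific to that gene.

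**Figure D3:**
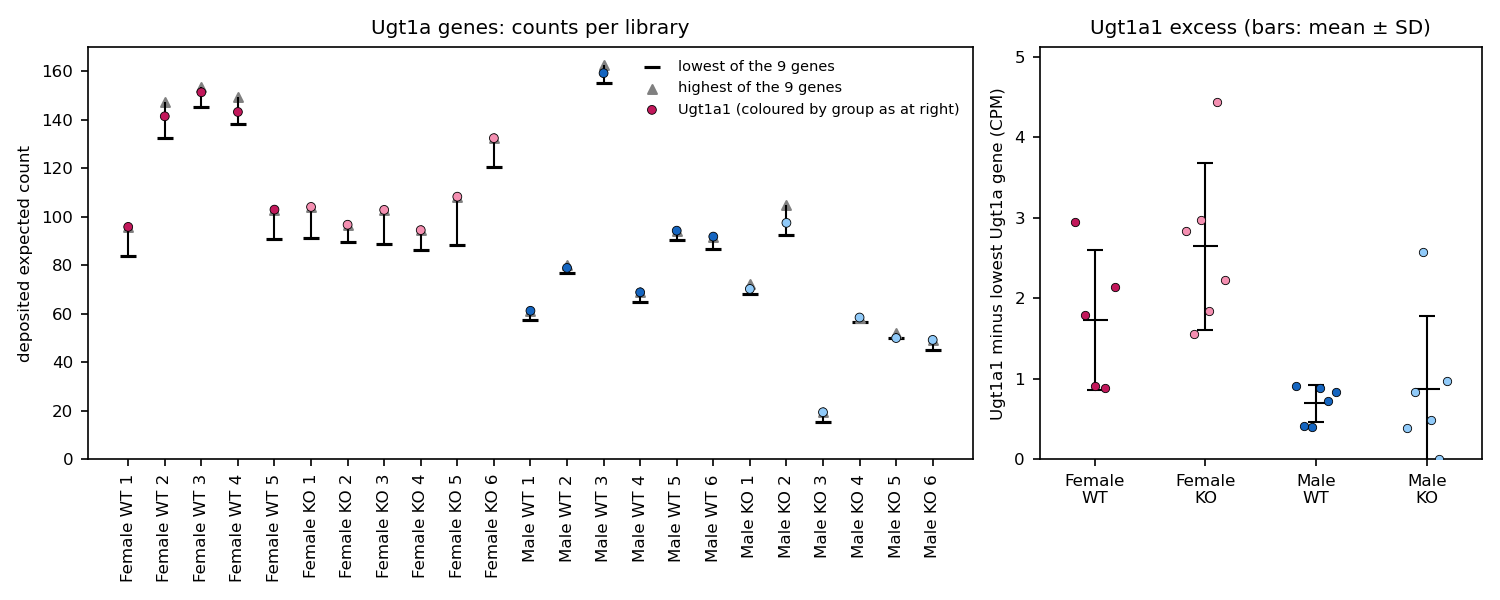
Deposited expected counts of the 9 Ugt1a genes per library (left, y axis in counts, x axis the 23 libraries) and the Ugt1a1 count above the lowest of the 9 genes per group (right, y axis in CPM, points for libraries, bars for mean ± SD). In each library the 9 counts lie within a ratio of 1.04 to 1.26, and the mean excess is 1.73 and 2.64 CPM in females against 0.696 and 0.878 CPM in males.

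The Ugt3a genes, neighbours on chromosome 15, had lower means in males. Ugt3a1 stood at 22.0, 30.5, 18.2, 20.7 and 20.5 CPM in Female WT. It ran from 18.6 through 23.8 to 27.0 CPM in Female KO, from 13.1 through 13.9 to 15.5 CPM in Male WT and from 12.6 through 14.6 to 21.9 CPM in Male KO. The WT sexes did not overlap, and the KO sexes did. The log2 fold change was -0.57 in WT (SE 0.17, adjusted p = 0.0448 by edgeR) and -0.48 in KO, where it missed the threshold (SE 0.17, adjusted p = 0.0784 by edgeR). The WT call held in only 11 of 23 fits without 1 library, with a highest adjusted p of 0.187 without Female WT replicate 2, and in 7 of 12 other settings. In KO, leaving out Male KO replicate 3 gave a call (-0.59, adjusted p = 0.0237 by edgeR). Ugt3a2 averaged 2.13 ± 0.769 CPM in Female WT, 1.45 ± 0.512 in Male WT, 3.00 ± 1.22 in Female KO and 1.38 ± 0.774 in Male KO (mean ± SD over 5, 6, 6 and 6 mice). Its groups overlapped, and it was not called in WT (-0.54, 95% interval -1.27 to 0.20) or KO (-1.08, -1.83 to -0.34, adjusted p = 0.067 by edgeR). The KO value was called without Female KO replicate 2 (-1.24, adjusted p = 0.0288 by edgeR) and without Male KO replicate 5 (-1.45, adjusted p = 0.0158 by edgeR).

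Between the KO and WT lines none of the 10 UGT genes passed the test in either sex. In females edgeR called 0 of 10, against 0.193% of all tested genes, and 1 gene had an unadjusted p under 0.05. That gene was Ugt2a3, which averaged 112 ± 11.5 CPM over the 5 Female WT mice and 131 ± 8.31 CPM over the 6 Female KO mice, with overlapping libraries and a log2 fold change of 0.26 (SE 0.12, unadjusted p = 0.0475, adjusted p = 0.556 by edgeR). In males 0 of 10 were called, against 0.132% of tested genes, and 0 had an unadjusted p under 0.05. DESeq2, limma-voom and limma-voom with sample weights also called 0 of the members tested in both sexes. In no member did the libraries of the genotypes separate, as they did for 1.07% of tested genes in females and 0.616% in males. The median log2 fold change of the members was 0.12 in females and 0.13 in males, against 0.01 and 0.04 over all tested genes.

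The intervals bound these genotype differences. For Ugt2b1 the 95% interval of the log2 fold change ran from -0.44 to 0.12 in females and from -0.30 to 0.23 in males. For Ugt1a1 it ran from -0.23 to 0.20 and from -0.35 to 0.09, and for Ugt2b5 from -0.38 to 0.30 and from -0.22 to 0.42. Ugt2b36 had the largest value in males, 0.29 (-0.05 to 0.63), which was 0.15 without Male KO replicate 3. Ugt3a2 had the largest in females, 0.53 (-0.15 to 1.21), on at most 20.5 counts per library. The sex by genotype interaction was called for 0 of 10, as for 0 of all tested genes, with 0 members at an unadjusted p under 0.05. DESeq2 and limma-voom called 0 members as well. The interaction interval was -0.26 to 0.51 for Ugt2b1 and -0.42 to 0.19 for Ugt1a1, and both intervals hold changes in either direction. Fold changes rest on TMM scaling and CPM on library totals, so small ones can differ in direction, as for Ugt2a3 between the WT sexes.

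Across libraries, many pairs of UGT genes varied together within the groups. After each group's mean was subtracted from log2 CPM, 38 of 45 member pairs had a Pearson's r above 0 over 23 libraries and 18 were above 0.5, with a median of 0.42. Without Male KO replicate 3 these counts were 41 and 17, with a median of 0.41. Ugt2b5 and Ugt2b36 had the highest r, 0.84 (0.81 without that library), followed by Ugt2b36 and Ugt3a1 with 0.78 (0.69). Ugt2b1 had an r of 0.16 with Ugt2b5, its fellow male-high gene, and of 0.00 with Ugt2b36, and these were 0.44 and 0.36 without Male KO replicate 3. All points share library depth and scaling, so r is a description and carries no test.

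**Figure D4:**
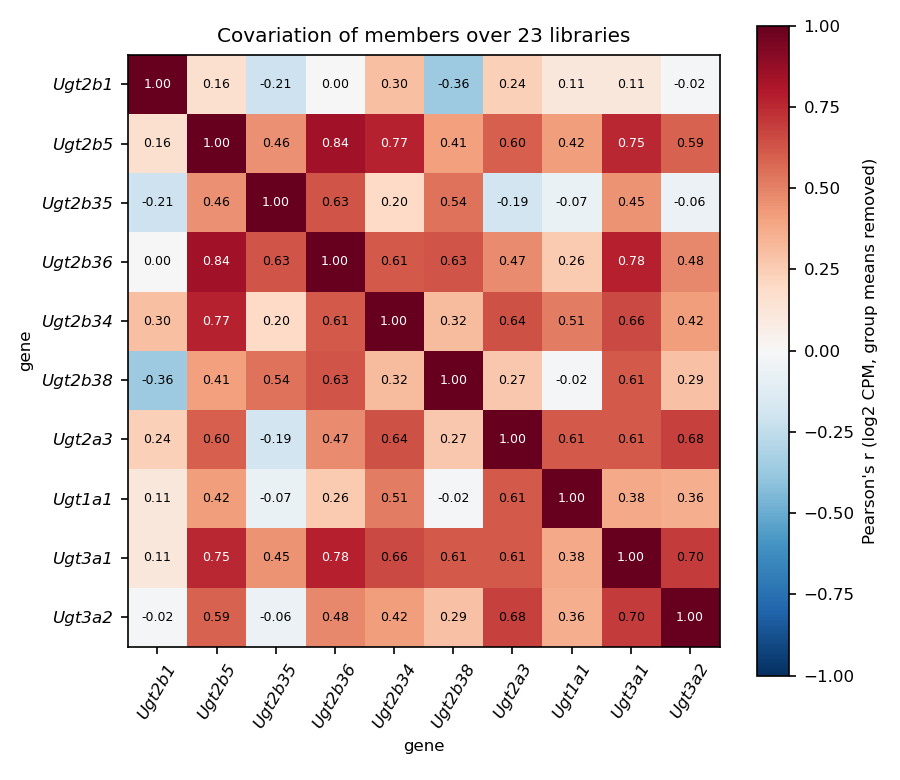
Pearson's r between UGT genes over 23 libraries, from log2 CPM with group means subtracted (both axes list the genes, and colour and printed values give r). Ugt2b5 and Ugt2b36 reach 0.84, and the values of Ugt2b1 with the other genes lie between -0.36 and 0.30.

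The genes most like the 3 most abundant members were sought among all tested genes. With group means subtracted, Ugt2b36 was closest to Fau (r = 0.92), Ccdc107 (0.91) and Pgrmc1 (0.90), a membrane protein that binds heme and P450 enzymes. Ugt2b5 was closest to Pam16, Txnl1 and Gm7380 (all 0.93). Ugt2b1 had lower values, 0.76 with Naglu, 0.74 with Selenbp1 and 0.72 with Hgd, and these were 0.66, 0.63 and 0.59 without Male KO replicate 3. With the sex difference left in, Ugt2b1 was closest to Cyp7b1, a male-biased hydroxylase of oxysterols, with r = 0.97, to Gm12718 with 0.97 and to Ces3a with 0.96. Over the same libraries Ugt2b5 was closest to Mgst1 (0.96), Glyat (0.95), which conjugates glycine to acyl groups, and Grhpr (0.93), and Ugt2b36 to Fau (0.91), Ppcs (0.90) and Timm10b (0.89).

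Beyond the members, 9 further Ugt genes were tested, 8 of them at the Ugt1a locus. The ninth, Ugt2b37, lies beside Ugt2b5 and was lower in males in WT, at 1.06 ± 0.268 against 3.00 ± 1.45 CPM (SD, n = 6 and 5, log2 fold change -1.36, SE 0.38, adjusted p = 0.0311 by edgeR), with overlapping libraries. In KO its difference was -0.93 (SE 0.42, adjusted p = 0.174 by edgeR). Of 11 tested genes that make, move and recover the UDP-glucuronate cosubstrate or feed its synthesis, 0 were called between the WT sexes and 1 between the KO sexes, against 5.61% and 7.44% of all tested genes, so the count is near the background. That gene was Slc35d2, a nucleotide sugar transporter, 1.55-fold higher in males (adjusted p = 0.00678 by edgeR). The median log2 fold change of this list, male against female, was 0.30 in WT and 0.17 in KO. Of 7 tested genes of the route from glucuronate to ascorbate, 0 were called in either line, with medians of 0.17 and 0.20.

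Several transporter genes around glucuronidation differed between the sexes. In the bilirubin route, from heme oxygenase to uptake and binding, 1 of 12 genes was higher and 2 lower in WT males, and 2 higher and 2 lower in KO males. Over all tested genes 2.36% were called higher and 3.25% lower in WT, and 3.67% and 3.77% in KO. The uptake carrier gene Slco1a1 was 8.31-fold higher in males in WT (adjusted p = 5.55e-05 by edgeR) and 12.1-fold in KO (adjusted p = 2.44e-06 by edgeR). Slco1a4 was 3.19-fold and 2.98-fold lower (adjusted p = 8.89e-09 and 1.87e-08 by edgeR), and Alb, which carries bilirubin in blood, was 1.55-fold and 1.44-fold lower. Slco1b2, a hepatocyte uptake carrier gene, was called in KO only, 1.47-fold higher, and the interaction called 0 genes. Of 5 genes for export of conjugates, the canalicular pump gene Abcg2 was 2.34-fold higher in males in WT and 2.16-fold in KO, and the basolateral pump gene Abcc4 was 4.49-fold and 2.90-fold lower. Abcc4 levels were low, at 1.05 ± 0.244 CPM in Male WT and 1.16 ± 0.467 in Male KO. In the genotype contrasts these supply, ascorbate, bilirubin and export lists held 0 called genes.

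Among 19 tested regulators of UGT genes, 1 was lower in WT males and 2 in KO males, and none was higher, where 5.61% and 7.44% of all tested genes were called in either direction. Counts of 1 and 2 are near that background. Esr1, the estrogen receptor gene, was 2.80-fold and 2.85-fold lower (adjusted p = 2.32e-05 and 3.14e-05 by edgeR). Nr1i2, which encodes the xenobiotic receptor PXR, was 1.57-fold lower in KO males (adjusted p = 0.021 by edgeR). The list medians, male against female, were -0.15 in WT and -0.21 in KO. In the growth hormone and sex bias list, 2 of 14 genes were higher and 4 lower in WT males, and 1 higher and 2 lower in KO males, beside 2.36% higher and 3.25% lower over all tested genes in WT and 3.67% and 3.77% in KO. Cux2, a female-biased repressor, averaged 12.0 ± 2.95 CPM over the 5 Female WT mice and 0.244 ± 0.270 CPM over the 6 Male WT mice, and Trim24 was 3.33-fold lower in WT males and 3.22-fold lower in KO males. Ghr, the growth hormone receptor gene, was 1.35-fold and 1.53-fold higher. Cish, which STAT5 induces, was 3.08-fold lower in Male WT than in Female WT (adjusted p = 0.0267 by edgeR). In Male KO it was 8.83-fold higher than in Male WT (adjusted p = 0.000133 by edgeR), at 38.6 ± 23.9 against 4.56 ± 2.28 CPM. Any link between Cish and UGT levels was not tested. Targets that mark receptor activity split in direction: of 10 tested, 3 were higher and 4 lower in WT males, and 2 higher and 2 lower in KO males, with the same all-gene shares of 2.36% and 3.25% in WT and 3.67% and 3.77% in KO. Cyp2b10, a marker of the receptor CAR, was 6.20-fold and 5.07-fold higher, and Cyp3a11, a marker of PXR, 2.57-fold and 2.47-fold lower.

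In bulk liver, fewer cells of a type and less RNA per cell cannot be told apart. Summed hepatocyte markers overlapped between the sexes in both lines, as did pericentral, periportal and cholangiocyte ones. The hepatocyte sum joined opposite changes. Of 7 markers, 1 was called higher and 1 lower in WT males, and 3 higher and 2 lower in KO males. Called shares of all tested genes were 5.61% and 7.44%. Serpina1c was 3.38-fold and 2.94-fold higher, while Alb was lower. Of 7 periportal markers, 1 was called higher in WT males, and 1 higher and 1 lower in KO males. Their median log2 fold changes, male against female, were -0.12 and -0.09. Periportal Cyp2f2 was 2.39-fold and 2.15-fold higher, and Gls2 1.34-fold lower in KO males. Of 8 pericentral markers, 1 was called higher in each line, Cyp1a2 in WT (1.40-fold) and Cyp27a1 in KO (1.36-fold). Their medians were -0.12 and -0.18. Of 4 tested cholangiocyte markers, only Krt19 was called, 2.91-fold higher in KO males, at 6.85 ± 6.22 against 2.57 ± 0.479 CPM. The 6 sinusoidal endothelium markers separated the WT sexes, at 122 to 145 CPM in Female WT and 91.3 to 119.6 in Male WT, and overlapped in KO, at 36.4 to 135 and 65.3 to 136. The 6 Kupffer cell markers ran from 67.5 to 112 CPM in Female WT, with a median of 78.5, and from 42.4 to 72.0 in Male WT, with a median of 53.0, while the KO ranges were 35.3 to 160.1 and 54.2 to 181. For the 6 stellate cell markers the range was 160 to 227 CPM in Female WT (median 187), 133 to 165 in Male WT (median 145), 106 to 248 in Female KO and 152 to 246 in Male KO. Pericentral markers summed to 2342 to 2658 CPM in Female WT, 2085 to 2566 in Female KO, 2447 to 2777 in Male WT and 1712 to 2421 in Male KO. The 5 exocrine pancreas markers summed to 26.7 to 43.7 CPM in Female WT and 27.2 to 85.2 in Female KO. The sums were 71.7 to 129 in Male WT and 113 to 206 in Male KO. Only Cela1 of these passed the low-count filter, and it was 2.84-fold and 3.24-fold higher in males. Cela1 alone made up most of the sum, at 35.3 ± 6.62 CPM in Female WT and 93.5 ± 20.4 in Male WT. The sum therefore reflects 1 gene rather than the set. The summed CPM of the 6 intestinal markers separated the WT sexes, at 37.8 to 55.7 CPM in Female WT and 57.3 to 92.9 in Male WT. It overlapped in KO, at 36.9 to 111 and 50.5 to 139, with Cdx1 at 0 in every library. Only 2 of these markers passed the low-count filter, and 0 were called between the sexes. Their median log2 fold change, male against female, was -0.18 in WT, opposite to the sum, and 0.52 in KO. The mitochondrial share of counts was 9.26% to 16.2% in Female WT against 7.87% to 9.35% in Male WT. It was 9.20% to 14.9% in Female KO against 7.32% to 11.8% in the Male KO libraries other than replicate 3, which had 16.1%. The part of these cell types and of the mitochondrial share in the UGT differences was not tested.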

How the data were processed

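Polyadenylated liver RNA of 23 mice was sequenced by 3′ end counting, per the labels' protocols. The authors deposited expected counts, fractional where reads were divided between genes, and CPM values per gene, the latter relative to totals slightly above the sums of the table. The submitters' processing notes name STAR 2.7.11 and featureCounts of Subread 2.1.1, fastp 0.24.0, SAMtools 1.22.1, and for quality FastQC 0.12.1 and MultiQC 1.32. Their build is mm39, and order and settings are not given in the sources used here. Groups came from sample titles, and the table held 0 columns of no sample.

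Rounded counts were compared by quasi-likelihood in edgeR 4.0.16 (R 4.3.3) with TMM scaling, filterByExpr and all 4 groups in 1 fit, giving KO against WT in each sex, male against female in each line, and their interaction. Benjamini-Hochberg adjusted p-values cover 11370 genes, and a value under 0.05 is a call. Standard errors were computed from fold changes and F statistics. Levels are deposited CPM, mean ± SD. The procedure was tested on simulated data. Within groups, chi-square divided by its degrees of freedom was 2.91 to 35.9 over 55 library pairs, so none were copies. Alternatives were DESeq2 1.42.0, limma-voom (limma 3.58.1) with and without sample weights, other scalings, filters, rounding, thinning, the replicate number as a block, only the compared groups, Ugt1a genes summed, and each library left out.

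The named genes are the 10 members, Cyp2e1, up to 4 called genes with the smallest adjusted p per list, and the 3 genes closest to each of the 3 most abundant members. Slco1b2, Alb, Ugt2b37 and the marker genes at 0 are given for the counts they belong to. Members and lists were chosen with earlier results of these data known. The result of 1 called gene of the regulator list is not reported here. GENCODE M21 and RefSeq sequences are on GRCm38, not mm39, and served for names, order, 3′ windows and promoters only.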

Additional observations from a re-analysis of the deposited data

Results flagged for a closer look

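In 3 of 40 combinations of a UGT gene and a group, 1 library lay far from the others of its group by Dixon's criterion, where chance gives about 1 in 20. Ugt2b5 was at 164 CPM in Female WT replicate 5, against 197 to 206 CPM in the other Female WT libraries, and that library had a mitochondrial share of 16.2%. Ugt2b35 was at 126 CPM in Male KO replicate 3, against 54.6 to 75.5 CPM in the other Male KO libraries. Ugt2b38 was at 8.17 CPM in the same shallow library, against 2.07 to 3.23 CPM in the others. The part of depth or mitochondrial share in these values was not tested.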

How the results depend on the processing

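No UGT gene changed direction among its called contrasts under any alternative, and Ugt2b1 kept its call between the sexes in both lines throughout. The number of members called in Male WT against Female WT ranged from 2 to 5 over the fits without 1 library and was 3 after thinning every library to the depth of Male KO replicate 3, where Ugt2b35 (0.72, adjusted p = 0.0927 by edgeR) and Ugt3a1 (-0.59, adjusted p = 0.25 by edgeR) lost their calls. It was 3 without Female WT replicate 4 and 2 without Female WT replicate 5 or Male WT replicate 2. In Male KO against Female KO the number ranged from 3 to 5, and in the genotype contrasts and the interaction it was 0 in every fit. Ugt1a1 lost its WT sex call with no filter on low counts (adjusted p = 0.0905 by edgeR), and Ugt2b35 its KO call with only the compared groups in the fit (adjusted p = 0.0657 by edgeR). Ugt2b36 gained a KO sex call by limma-voom with sample weights (0.50, adjusted p = 0.0108), and Ugt3a1 by limma-voom (-0.53, adjusted p = 0.0495). With the replicate block 4 members were called in each sex contrast, and Ugt3a1 in WT was lost (adjusted p = 0.0744 by edgeR). The numbers were not taken to pair the mice, since the labels do not say that they do. Of 33 same-numbered pairs of libraries, 14 had a correlation above 0.1 (range -0.36 to 0.32), among them all 6 pairs of replicate 1 (0.20 to 0.32). Differently numbered pairs were not compared, so these values cannot decide the question. The cause of the changed calls was not tested. Depth limits Ugt2b38, Ugt3a2 and the Ugt1a1 excess, and division of reads limits Ugt1a1. Reads were also divided in Ugt2b5 and Ugt2b38, whose counts were fractional in 23 and 22 libraries. Fractional counts also occurred in Ugt2a3 and Ugt2b34 (14 libraries each), Ugt2b35 (13), Ugt3a2 (11), Ugt2b1 (6), and Ugt2b36 and Ugt3a1 (3 each). For Ugt2b38, 0% of the 50-base windows in its last 500 bases occur in other genes. That check covered only these bases on GRCm38, so it does not bear on reads divided elsewhere.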
